A study of Mus musculus with 10 samples.

Results

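Voltage-gated sodium, calcium and HCN channels were described as a module of 36 genes among the 24972 genes quantified in mouse cortex. Members were taken by gene symbol: the pore-forming sodium channel genes and their beta subunits (Scn), the pore-forming calcium channel genes (Cacna1), the auxiliary alpha2delta (Cacna2d) and beta (Cacnb) subunits, and the hyperpolarization-activated channels (Hcn). The rule uses no measured value. Of the 36 genes, 31 passed the filter on low counts and were tested; Cacna1f, Cacna1s, Scn4a, Scn10a and Scn11a did not. The cortices came from male C57BL/6 mice aged 2.5 months, perfused through the heart with cold PBS before dissection. The first group was 5 littermates labelled Atad3 control, and the other was 5 mice labelled Atad3 nKO. Each library is 1 animal by the study's design text. ATAD3 is a mitochondrial inner membrane ATPase. What nKO stands for is not written in the labels, which name neither a Cre driver nor the deleted exons, so the cells that carry the deletion are unknown here. Controls are described only as littermates, and no other allele or agent is named for either group.

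Sodium channels open on depolarization and drive the upstroke of the action potential. High-voltage calcium channels couple depolarization to transmitter release and to calcium entry in dendrites, whereas low-voltage (T-type) channels open near rest and support burst firing. HCN channels open on hyperpolarization and set resting conductance and rhythm, and beta and alpha2delta subunits control the trafficking and gating of the pores they bind. In bulk tissue, fewer cells of a type and less RNA per cell cannot be told apart.

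Libraries held 14812639 to 24161361 estimated counts, of which the module took 0.562% to 0.642%. Atad3a, the targeted gene, was lower in the libraries labelled nKO (23.7 ± 1.87 CPM in controls, 11.5 ± 1.97 in nKO, SD over 5 mice per group), and the fold change in reads was -1.04 on the log2 scale (SE 0.12), with an adjusted p of 0.00634 by edgeR's quasi-likelihood test. Neuronal marker lists were abundant: 10 excitatory genes summed to 1360 to 1658 TPM in controls and 1630 to 1807 in nKO libraries. In read counts 7 of the 10 were higher in nKO, beside 47.8% of all tested genes. The 8 inhibitory genes summed to 1209 to 1463 TPM in controls and 1404 to 1546 in nKO libraries, with 4 higher and 4 lower in read counts. On the first principal component of all genes, control 1 and nKO 4 stood at opposite ends (-46.8 and 29.8). Control 3, at 23.5, lay near nKO 4, and the other libraries ran from -8.04 to 11.2. Control 1 and nKO 4 also had the extreme effective lengths for many channel genes, as described with those genes. Several edgeR results, among them the members' counts and median, are therefore also given without these 2 libraries. The length trend, the TPM comparisons, the marker lists and the partner lists are given for all 10 libraries only.

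No member of the module passed the 5% threshold. By edgeR with Benjamini-Hochberg adjustment over all genes, 0 of the 31 tested members were called, beside 0.0139% of the 14378 genes tested (2 genes, Atad3a and Fam155a). DESeq2 also called 0 members, beside 0.0348% of genes. At an unadjusted p under 0.05, edgeR gave 1 member, Hcn4, against 5.65% of all genes (3.36% when only higher values are counted), and DESeq2 gave 1, Hcn4 again, against 5.82%. Groups did not overlap in CPM (reads relative to library size, after TMM scaling) for 1 member, the same Hcn4, against 1.38% of all genes. A single gene is close to what those background shares amount to among 31 genes. The edgeR count at unadjusted p under 0.05 was 4 without control 1 (against 6.74% of genes), 2 without nKO 5, and 0 without control 4, without nKO 1 or without nKO 4. For 23 of the 31 members the 95% interval of the change lay within 1.5-fold in either direction, and for 30 within 2-fold, so larger changes of most channel genes lie outside these intervals.

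**Figure D1:**
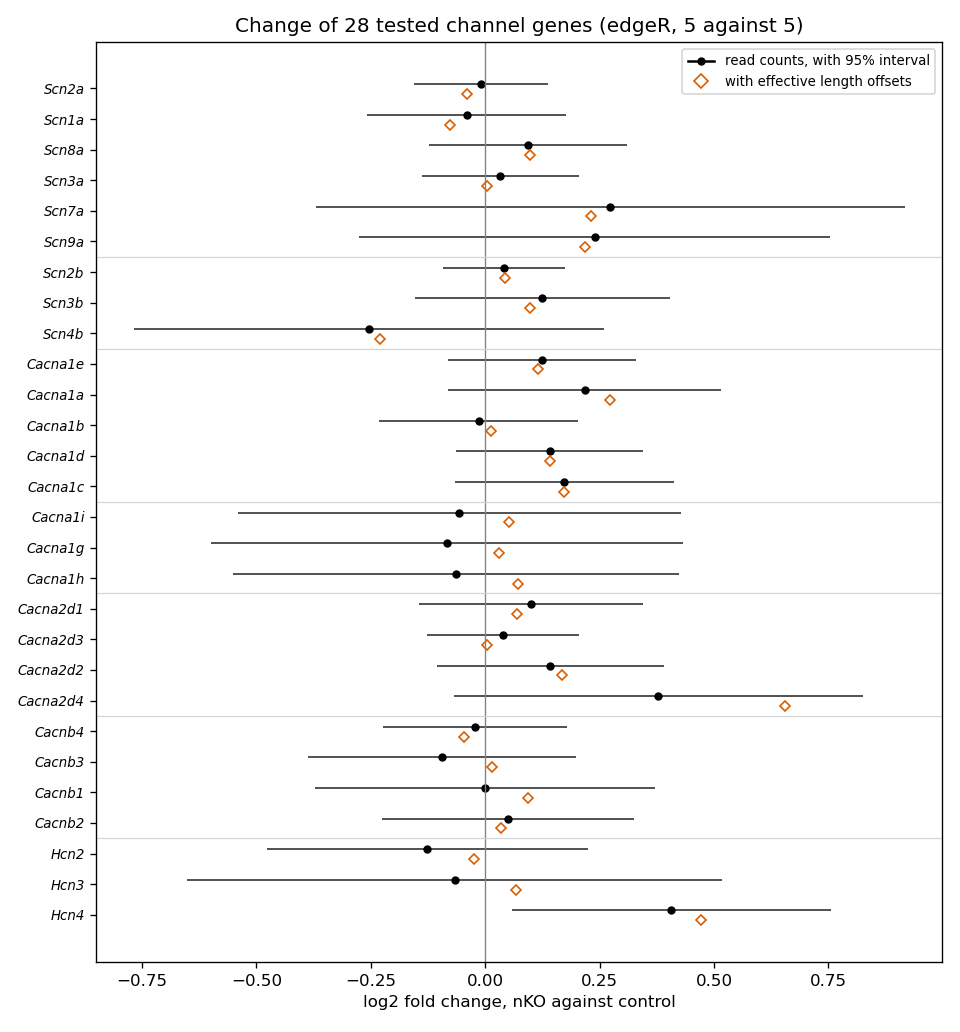
Log2 fold change in nKO against control for 28 of the 31 tested channel genes, in families and by falling control TPM within each. Black points and lines give the edgeR estimate on read counts with its 95% interval, and open diamonds the estimate with per-library effective length offsets; only the interval of Hcn4 lies wholly above 0.

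By direction, 19 members were higher in nKO and 12 lower, with a median log2 fold change of 0.04. Over all genes 47.8% were higher and the median was -0.01. The members are long transcripts: the longest was Cacna1c at 13574 bases, the median of the 31 tested was 7806 bases against 2994 for all tested genes, and 23 of the 31 lay in the longest quartile. Direction moved with length across the transcriptome. In the shortest quartile 32.3% of genes were higher in nKO with a median log2 fold change of -0.07, in the longest quartile 67.6% were higher with a median of 0.05, and in the longest 10% of genes 74.1% were higher with a median of 0.06. After the trend of change on length was taken off, 17 members were higher and 14 lower, with a median of 0.01. The share of members that were higher was thus below that of the longest quartile before the trend was removed. Across the 31 members the Spearman correlation of change with length was 0.328, and across all tested genes it was 0.301; genes share the same libraries and are not independent points, so no p is given. Without control 1 the members' median was 0.15, with 26 of 31 higher beside 49.6% of all genes, and it was 0.08 without control 2. The share of the longest quartile that was higher was not computed for these fits. Deviations of log2 CPM from each gene's mean over all libraries were also taken. Their median in the longest quartile was lowest in control 1 (-0.05) and highest in nKO 4 (0.09). In the shortest quartile it was highest in control 1 (0.08) and lowest in nKO 4 (-0.08). The length trend was not computed without these libraries.

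**Figure D2:**
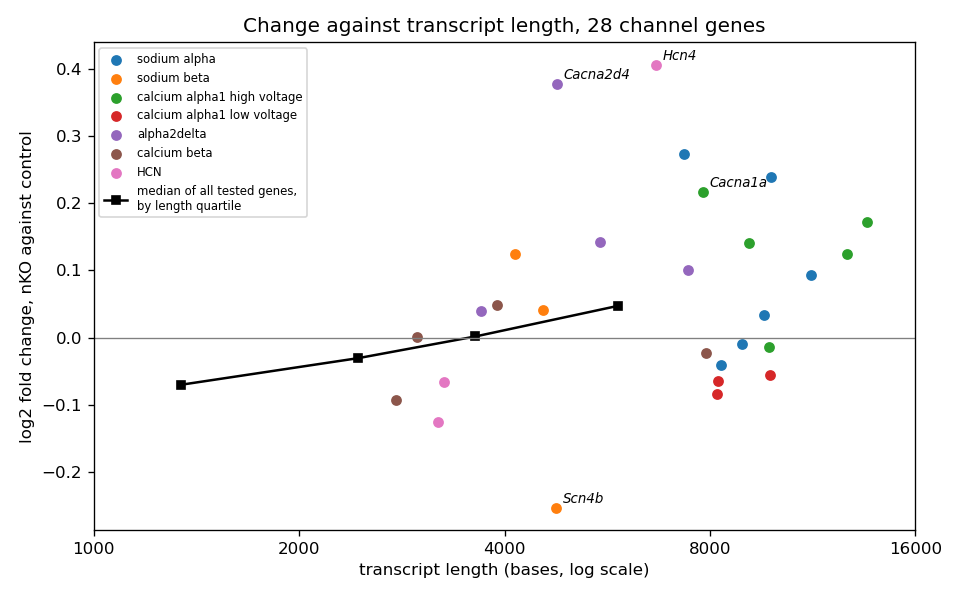
Log2 fold change (nKO against control) of 28 tested channel genes against transcript length in bases on a log axis, coloured by family. Black squares join the median change of all 14378 tested genes in each length quartile, which runs from -0.07 in the shortest to 0.05 in the longest.

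Levels of the members are given in TPM, which divides by each transcript's effective length and so can be set side by side between genes. Control means of the 33 genes described singly ran from 0 for Scn4a to 275 TPM for Scn2a, and within each family the order of the most abundant genes was mostly the same in every library. Where neighbours among the tested genes described singly changed places between libraries, this is stated with the family. Of the untested sodium channel genes, Scn10a exceeded Scn11a in 6 of 10 libraries and Scn11a exceeded Scn4a in 7 of 10.

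**Figure D3:**
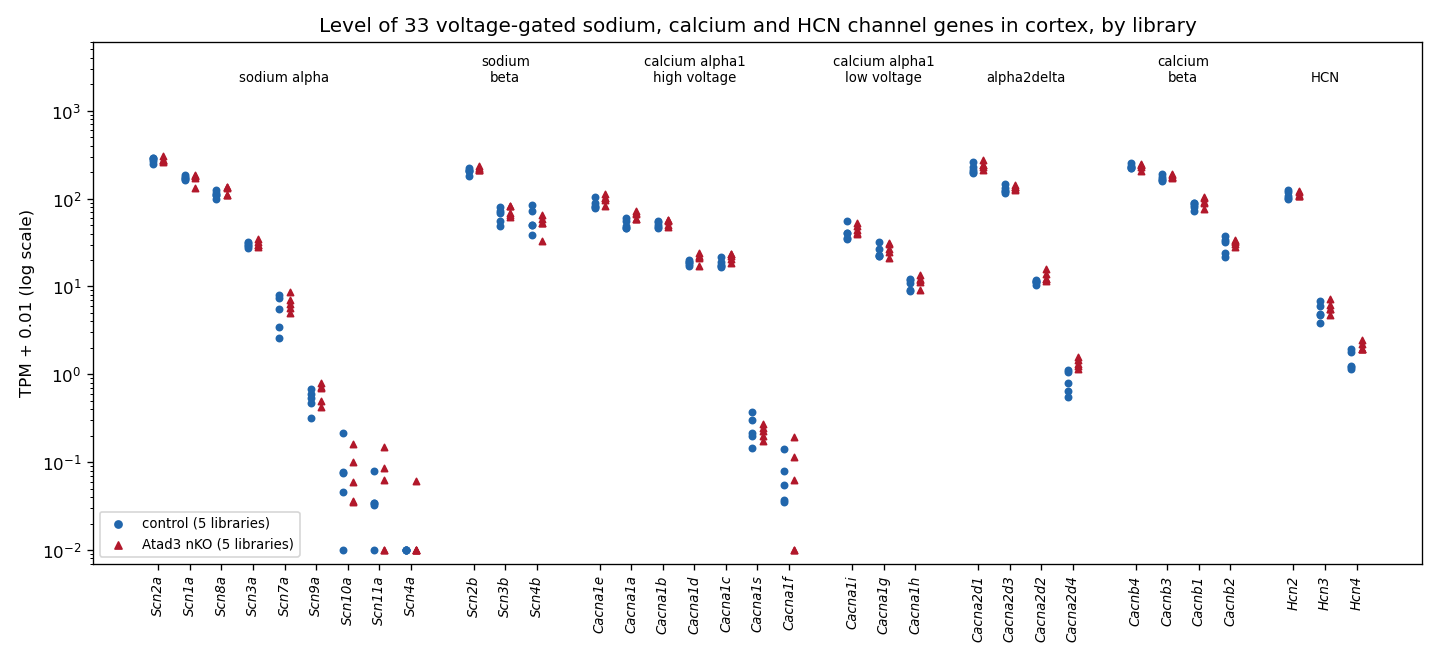
TPM (plus 0.01, log axis) of 33 channel genes in each of the 5 control (circles) and 5 nKO (triangles) libraries, grouped by family and ordered by control mean. The groups of points overlap for every tested gene shown except Hcn4 and Cacna2d4.

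Scn2a, the main sodium channel of excitatory neurons, was the most abundant pore-forming sodium channel gene. Its level was 246, 286, 271, 284 and 287 TPM in controls 1 to 5 and 276, 270.1, 276, 303 and 262 TPM in nKO 1 to 5. The lowest library was control 1 and the highest nKO 4, and the groups overlapped over most of their range. The means were 275 ± 17.5 TPM in controls and 277 ± 15.4 in nKO (SD over 5 mice per group), and read counts differed by -0.01 on the log2 scale (95% interval -0.15 to 0.14, SE 0.07), for an edgeR adjusted p of 0.99. Scn2a is 8901 bases long and lies at chr2:65620764-65767447 (GRCm38), in a cluster with Scn1a, Scn3a, Scn7a and Scn9a on the same chromosome. Scn1a, the channel of fast-spiking interneurons, followed with 173 ± 8.26 TPM in controls and 170.1 ± 22.3 in nKO. Its lowest value, 132 TPM in nKO 2, lay apart from the 164 to 186 TPM of the other libraries. Scn8a, the channel of mature axon initial segments and nodes of Ranvier, had 112 ± 9.24 TPM in controls and 125 ± 13.8 in nKO, with a log2 fold change of 0.09 (SE 0.10). Scn3a, which is expressed mainly before birth, had 29.8 ± 1.64 and 31 ± 2.58 TPM. The order Scn2a, Scn1a, Scn8a, Scn3a held in all 10 libraries. The leading Scn2a transcript, NM_001346679, made up 69.8 ± 3.87% of that gene's TPM in controls and 69.8 ± 1.93% in nKO.

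Sodium channel genes known from other tissues were low. Scn7a, which encodes a sodium-sensing channel of glia and peripheral nerve, had 5.35 ± 2.32 TPM in controls and 6.54 ± 1.42 in nKO. The sensory neuron gene Scn9a had 0.511 ± 0.140 and 0.619 ± 0.159 TPM. Scn10a and Scn11a, sodium channels of pain-sensing neurons, reached at most 8.05 and 6.04 estimated reads in any library. Scn4a, the skeletal muscle channel, was listed at 0 reads in all 5 controls and at no more than 2.01 reads in the nKO libraries. Marker lists of those tissues were low too: 8 muscle genes summed to 1.71 to 4.10 TPM in controls and 2.54 to 3.47 in nKO, and 6 sensory neuron genes to 1.94 to 5.27 and 1.37 to 3.94, with 1 of the 6 at 0 in every library.

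Scn2b, a sodium channel beta subunit linked to the pore by a disulfide bond, had 180.0, 211, 204, 223 and 207 TPM in controls 1 to 5 and 215, 212, 212, 221 and 234 TPM in nKO 1 to 5. The ranges overlapped. The means were 205 ± 15.8 TPM in controls and 219 ± 9.13 in nKO, and its change was the most tightly bounded of the module (0.04 on the log2 scale, SE 0.06, 95% interval -0.09 to 0.17). Scn3b had 65.1 ± 12.6 and 72.0 ± 9.74 TPM. Scn4b, the beta subunit that supports resurgent sodium current, had 58.7 ± 18.9 and 52.4 ± 11.7 TPM, and its log2 fold change of -0.25 (SE 0.23) was the lowest of the module, with an interval from -0.77 to 0.26. Without control 1 and nKO 4 it was -0.09, and Scn1a and Scn2a (both -0.10) were lower. Scn3b exceeded Scn4b in 8 of 10 libraries, so those neighbours were not separated. Scn2b and Scn4b are neighbours on chromosome 9 (chr9:45117876-45130070 and chr9:45138624-45154155).

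The high-voltage calcium channel genes had a median change of 0.14 on the log2 scale, with 4 of 5 tested members higher in nKO. In the longest quartile of all tested genes 67.6% were higher. The high-voltage median was the highest of the 7 families in the fit to all libraries. With the trend of change on length taken off it was 0.07, level with 0.07 for alpha2delta genes. Without control 1 and nKO 4 it was not the highest, at 0.17 beside 0.29 for the low-voltage genes and 0.23 for HCN genes. The summed TPM of the 7 listed high-voltage genes was 227 ± 19.7 in controls and 260.2 ± 22.4 in nKO. Ranges overlapped, from 208 to 250.1 TPM in controls and from 225 to 280 in nKO. Cacna1e, which carries R-type current, was the most abundant. Its level was 89.7, 105, 82.3, 79 and 81.1 TPM in controls 1 to 5 and 101, 100.5, 96.8, 111 and 83.4 TPM in nKO 1 to 5. Control 2 was higher than 4 of the nKO libraries and nKO 5 sat among the controls, so the groups overlapped. In reads, the log2 difference was 0.12 (95% interval -0.08 to 0.33, SE 0.09), for an edgeR adjusted p of 0.86. The difference was 0.19 without control 2 and 0.08 without nKO 4. Its transcript is 12697 bases long.

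Cacna1a encodes the pore of P/Q-type channels, the main trigger of fast transmitter release. Its level was 60.8, 55.2, 49, 46.4 and 46.4 TPM in controls 1 to 5 and 72, 58.4, 68, 67.4 and 59.1 TPM in nKO 1 to 5. Only control 1 among controls reached the nKO range, and 3 nKO libraries lay above every control. The means were 51.6 ± 6.30 TPM in controls and 65.0 ± 5.95 in nKO, a difference of 0.34 on the log2(TPM + 0.1) scale with a 2-sided exact permutation p of 0.0238 (0.369 after adjustment over all tested genes). In CPM its values were 168, 115, 102, 101 and 100.1 CPM in controls 1 to 5 and 154, 126, 146, 130.0 and 124 CPM in nKO 1 to 5. Here control 1 was the highest of all 10 libraries. Read counts differed by 0.22 on the log2 scale (95% interval -0.08 to 0.51, SE 0.14), for an edgeR adjusted p of 0.839. With effective length offsets it was 0.27 (edgeR adjusted p = 0.485), and without control 1 and nKO 4 it was 0.39 (edgeR adjusted p = 0.478). It was above 0 under all 23 alternatives, from 0.15 to 0.39, with adjusted p from 0.26 to 0.95. The division of its reads among transcripts was uneven: NM_001252060 held 100% of Cacna1a TPM in every nKO library and 9.99% to 100% in controls, and controls 1, 4 and 5 were mixtures. That division does not enter the gene total of reads.

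The L-type genes Cacna1c and Cacna1d, which couple activity to gene expression, were lower in level. Cacna1c, the longest member at 13574 bases, had 21.7, 19.2, 16.5, 17.4 and 17 TPM in controls 1 to 5 and 22.4, 20.7, 23.1, 23.5 and 18.3 TPM in nKO 1 to 5. The nKO values were mostly above the controls, but control 1 exceeded nKO 2 and nKO 5. Its log2 fold change was 0.17 (SE 0.11, edgeR adjusted p = 0.84), or 0.28 without control 1 (edgeR adjusted p = 0.683), and the exact permutation p on log2(TPM + 0.1) was 0.0476 (0.45 adjusted). Cacna1d had 18.9, 19.8, 16.9, 19 and 18.1 TPM in controls 1 to 5 and 22.4, 21.7, 24, 21.2 and 16.9 TPM in nKO 1 to 5. In 4 nKO libraries it was above every control, and in nKO 5 it was level with the lowest control. Its log2 fold change was 0.14 (SE 0.09, edgeR adjusted p = 0.843), or 0.09 without nKO 3. Cacna1b, the N-type channel of presynaptic terminals, had 50.9 ± 4.04 TPM in controls and 53.5 ± 4.74 in nKO, with a log2 fold change of -0.01 (SE 0.10). Cacna1a exceeded Cacna1b in 8 of 10 libraries and Cacna1d exceeded Cacna1c in 7 of 10, so neither pair was separated. Cacna1s and Cacna1f, the channels of skeletal muscle and of the retina, had at most 16.1 and 7.04 estimated reads in any library.

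**Figure D4:**
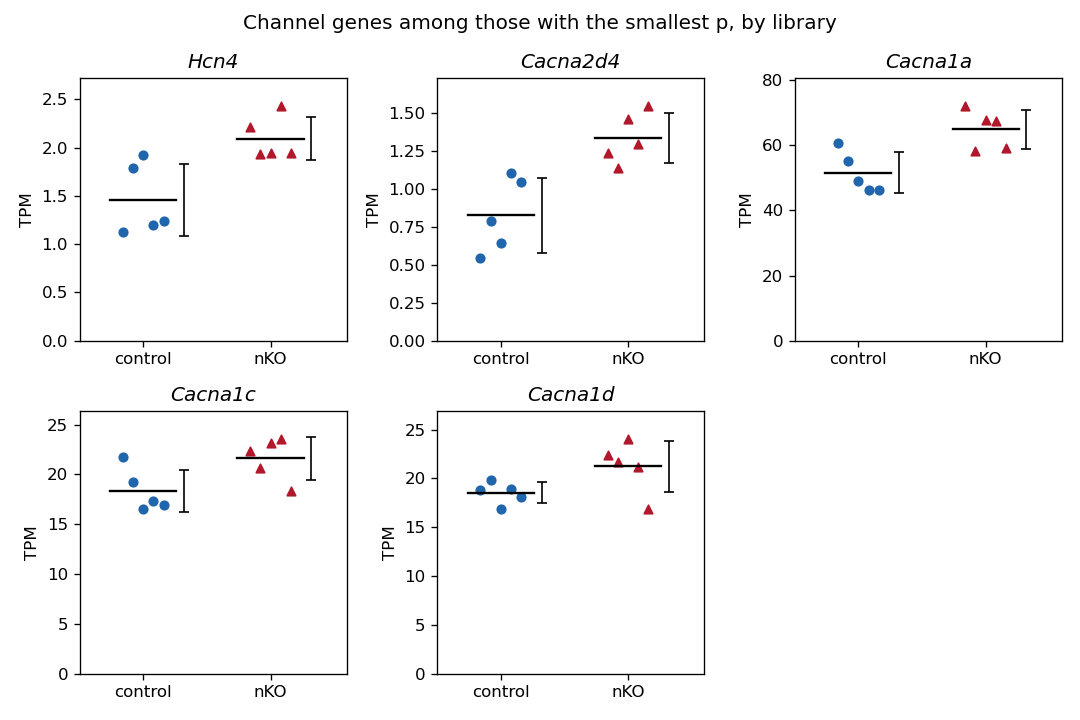
TPM of 5 of the 6 tested channel genes with the smallest edgeR p, one panel each, with 5 control (circles) and 5 nKO (triangles) libraries; horizontal lines are means and error bars 1 SD. Control and nKO points are separate for Hcn4 and Cacna2d4 and overlap for Cacna1a, Cacna1c and Cacna1d.

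The low-voltage (T-type) genes had no direction that held on both scales. Cacna1i, its most abundant member, had 56, 40.7, 40.9, 34.5 and 35.9 TPM in controls 1 to 5 and 49.3, 39.4, 52.6, 43.8 and 41 TPM in nKO 1 to 5. Control 1 was the highest library and the rest overlapped between groups, with means of 41.6 ± 8.52 TPM in controls and 45.2 ± 5.6 in nKO. In CPM the values were 209.5, 103, 103, 92.4 and 96.7 CPM in controls 1 to 5 and 131, 107, 142, 96.5 and 104 CPM in nKO 1 to 5. Control 1 was far above the other controls, and 4 of the 5 nKO libraries lay above those other controls. On the log2 scale, reads differed by -0.06 between groups (95% interval -0.54 to 0.43, SE 0.22), for an edgeR adjusted p of 0.981. All 3 members, Cacna1i, Cacna1g and Cacna1h, were below 0 in read counts (-0.06, -0.08 and -0.06) and all 3 were above 0 with effective length offsets (0.05, 0.03 and 0.07). Without control 1 and nKO 4 they were 0.29, 0.30 and 0.24, with edgeR adjusted p of 0.508, 0.508 and 0.622. The order Cacna1i, Cacna1g, Cacna1h held in all 10 libraries, with control means of 41.6, 25.1 ± 4.17 and 10.6 ± 1.49 TPM.

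Effective length is the transcript length after the quantifier's correction for how readily its fragments are seen in a library, and TPM divides by it. The value per gene also follows how its TPM was divided among transcripts of unequal length. For Cacna2d4 it was 1.24, 1.18 and 1.23 times the mean length in controls 1, 3 and 5. In those libraries NM_001362214, of 3258 bases, had 0 TPM. Over the channel genes effective length varied between libraries with GC content. Relative to nKO 4, the effective length in control 1 was 0.86 times as long for Scn7a (40.2% GC) and 1.83 times as long for Cacna1h (60% GC). Across the 31 tested members the Spearman correlation of that ratio with GC content was 0.926, given as a description over genes that share both libraries. Of all 36 members, 18 had their highest ratio of effective length to length in control 1, and 23 had their lowest in nKO 4. With effective length offsets in the edgeR fit, 25 of 31 members were higher in nKO with a median log2 fold change of 0.07, beside 48% of all genes. With the offsets 6 members changed sign (Cacna1b, Cacna1g, Cacna1h, Cacna1i, Cacnb3 and Hcn3), and in read counts each of these lay between -0.09 and -0.01. At unadjusted p under 0.05 that fit gave 3 members (Cacna1a, Cacna2d4 and Hcn4) against 9.7% of genes, and it called 0 members at 5%, beside 0.0139% of genes. Without control 1 and nKO 4, 23 of 31 were higher, with a median of 0.11, beside 48% of genes, and 6 members were at unadjusted p under 0.05, against 9.12% of genes. With the offsets and without both libraries, 25 of 31 were higher beside 49% of genes, and 7 were at unadjusted p under 0.05, against 9.87%. In each of these fits 0 members were called at 5%. The share of long genes that were higher in nKO was not computed for these fits. In read counts of all libraries it was 67.6% in the longest quartile, which held 23 of the 31 tested members. The part of fragment bias in the differences between groups was not tested.

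**Figure D5:**
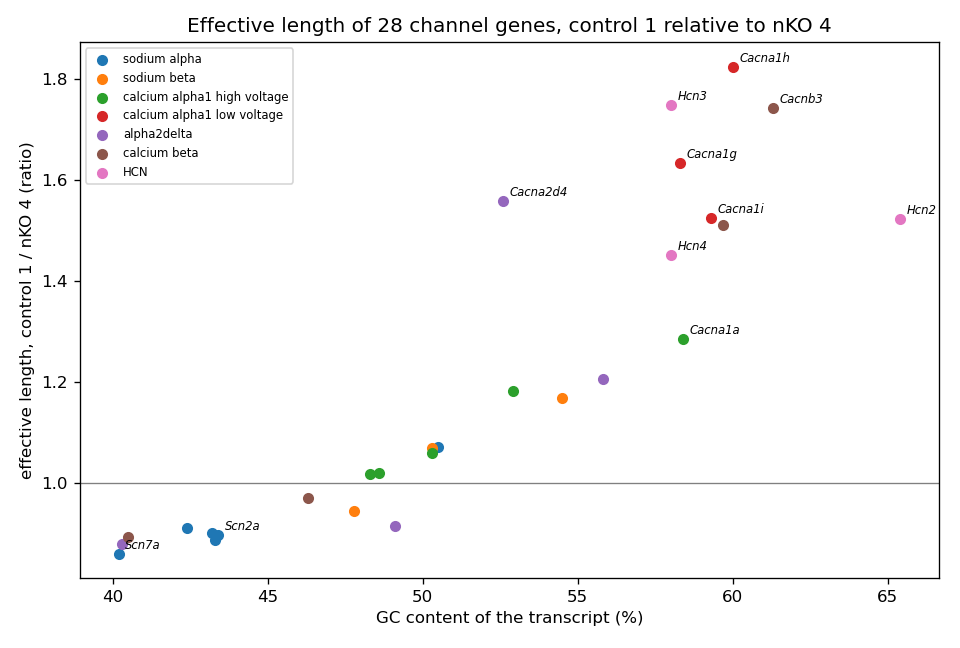
Ratio of effective length in control 1 to that in nKO 4 against GC content of the transcript (%) for 28 tested channel genes, coloured by family. The ratio lies near 0.9 for genes of about 40% GC and reaches 1.83 for Cacna1h, so the same read counts give different TPM in these libraries.

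On the TPM scale, 29 of 31 members had a higher mean of log2(TPM + 0.1) in nKO, where 65% of all tested genes did, and the median difference was 0.13 against 0.05 for all genes. The 2 exceptions were Scn1a (-0.03) and Scn4b (-0.14). How long genes as a whole differed in TPM was not computed. Exact permutation of that value over all ways to split the 10 libraries 5 and 5 gave p under 0.05 for 5 members (Cacna1a, Cacna1c, Cacna2d2, Cacna2d4 and Hcn4) against 10.6% of genes. After adjustment over all genes by Benjamini-Hochberg, 0 members and 0% of genes passed 5%, and the smallest adjusted value was 0.31. Groups were without overlap in TPM for 2 of 31 members, Hcn4 and Cacna2d4, against 2.56% of genes. Among 13 marker lists of cell types and regions, 3 had summed TPM that was higher in nKO at an unadjusted p under 0.05. The median sum of the 10 excitatory neuron markers was 1522 TPM in controls and 1749 in nKO (exact permutation p = 0.0159, 2-sided on the log2 scale). For the 5 hippocampal markers it was 45.1 and 52.9 TPM (ranges 35.0 to 50.4 and 49.6 to 54.8, exact permutation p = 0.0159). For the 4 oligodendrocyte precursor markers it was 89.5 and 114 TPM (ranges 87.5 to 114 and 103 to 120, exact permutation p = 0.0238). Adjusted over the 13 lists by Benjamini-Hochberg each of these was 0.103, and the groups' ranges overlapped in all 3. The part of cell makeup in the direction of the channel genes was not tested.

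The 4 alpha2delta genes were all higher in nKO, with a median log2 fold change of 0.12 and none past the threshold. Over all tested genes 47.8% were higher, and in the longest quartile 67.6%. With the trend of change on length taken off, the median of the 4 genes was 0.07. Cacna2d1, the most abundant and a binding target of gabapentin, had 194, 232, 262, 202 and 212 TPM in controls 1 to 5 and 239.7, 212, 228, 276 and 242 TPM in nKO 1 to 5. Control 3 and nKO 4 were the highest libraries of their groups and the ranges overlapped. In reads, the log2 difference was 0.10 (95% interval -0.14 to 0.34, SE 0.11), for an edgeR adjusted p of 0.893. The difference was 0.18 without control 3, 0.16 without nKO 2, 0.06 without control 1 or control 4, 0.01 without nKO 4 and -0.03 without control 1 and nKO 4 together. Nearly all of its TPM (99.2 ± 0.90% in controls, 99.2 ± 0.425% in nKO) came from NM_001110844. That transcript carries a 21-base stretch at chr5:16341990-16342010 (GRCm38, plus strand) which NM_009784 lacks, and a 15-base stretch at chr5:16326312-16326326 which NM_001110845 lacks. Both are shown whole, in capitals, because together they tell the leading form from the other transcripts with TPM above 0.
Cacna2d1 stretch absent from NM_009784: CAAAAAAGGGAAAAATGAAGG
Cacna2d1 stretch absent from NM_001110845: AACCCCAAATCTCAG
Cacna2d3 had 128 ± 12.2 TPM in controls and 133 ± 6.94 in nKO, and Cacna2d2 had 11.2 ± 0.454 and 13.1 ± 1.72. For Cacna2d2 4 nKO libraries lay above every control, and the exact permutation p was 0.0159 (0.339 adjusted over all tested genes).

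Cacna2d4, an alpha2delta subunit best known from photoreceptors, was the lowest of the family. Its level was 0.544, 0.788, 0.64, 1.11 and 1.05 TPM in controls 1 to 5 and 1.24, 1.14, 1.46, 1.3 and 1.54 TPM in nKO 1 to 5. All nKO values were above all control values, the closest being nKO 2 and control 4. The means were 0.825 ± 0.246 TPM in controls and 1.33 ± 0.166 in nKO, with an exact permutation p of 0.00794, the smallest that 5 against 5 can give, and 0.31 after adjustment over all tested genes. In CPM the groups overlapped: 1.33, 1.23, 1.35, 1.87 and 2.26 CPM in controls 1 to 5 and 1.95, 1.95, 2.31, 1.82 and 2.46 CPM in nKO 1 to 5. Read counts differed by 0.38 on the log2 scale (95% interval -0.07 to 0.82, SE 0.21), for an edgeR adjusted p of 0.82. With effective length offsets the difference was 0.66 (edgeR adjusted p = 0.466). These values rest on 21.1 to 44.3 estimated reads per library, and on how they were divided between transcripts of unequal length. NM_001362214, of 3258 bases, took 45.9% to 64.8% of the gene's TPM in nKO libraries and 0% to 57.7% in controls. NM_001347427, of 5728 bases, took 35.2% to 54.2% and 42.3% to 100%. The usage test did not separate the groups (edgeR adjusted p = 1).

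The intracellular calcium channel beta subunits had log2 fold changes between -0.09 and 0.05. Without control 1 and nKO 4 the range was wider: Cacnb1 was 0.25 (edgeR adjusted p = 0.523), Cacnb3 0.11, Cacnb2 near 0 and Cacnb4 -0.06. Cacnb4, the most abundant, had 229, 251, 234, 223 and 224 TPM in controls 1 to 5 and 231, 206, 240.5, 241 and 249 TPM in nKO 1 to 5. The lowest library was nKO 2 and the highest control 2, with the other values between. Its means were 232 ± 11.5 TPM in controls and 234 ± 16.5 in nKO, and read counts differed by -0.02 on the log2 scale (95% interval -0.22 to 0.18, SE 0.09), for an edgeR adjusted p of 0.981. Cacnb3 had 171 ± 12.1 and 179 ± 7.11 TPM, Cacnb1 83.0 ± 6.75 and 92 ± 11.6, and Cacnb2 29.8 ± 6.63 and 31.5 ± 2.10. The order Cacnb4, Cacnb3, Cacnb1, Cacnb2 held in every library. The leading Cacnb3 transcripts begin with different coding stretches, which are shown because this gene's usage p was second to that of Cacna2d4; it was chosen after these values were seen. NM_007581 starts at chr15:98635169-98635213 and NM_001044741 at chr15:98632479-98632520 (GRCm38, plus strand), and capitals mark the start codon.
Cacnb3 NM_007581: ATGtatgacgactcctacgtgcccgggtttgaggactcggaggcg
Cacnb3 NM_001044741: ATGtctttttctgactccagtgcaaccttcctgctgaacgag
The second form made up 18 ± 5.74% of Cacnb3 TPM in controls (9.63% to 25.1%) and 9.33 ± 6.06% in nKO (0% to 14.7%), so the ranges overlapped. The first form made up 76.1 ± 6.39% and 83.9 ± 5.42%. The gene's usage test gave an adjusted p of 1 by edgeR. Over the module, 98 transcripts were listed for the 36 genes, usage could be tested in 17 genes, and 0 of them passed 5%, beside 0.0211% of 4732 genes; the smallest adjusted p was 1, and at an unadjusted p under 0.05 there were 0 members, against 0.719% of genes.

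HCN genes were led by Hcn2, the form found widely in brain. Its level was 125, 106, 102, 118 and 98.3 TPM in controls 1 to 5 and 121, 108, 120.2, 107 and 108 TPM in nKO 1 to 5. Control 1 was highest and the groups overlapped, with means of 110.1 ± 11.2 TPM in controls and 113 ± 6.80 in nKO. On the log2 scale, reads differed by -0.13 between groups (95% interval -0.47 to 0.22, SE 0.16), for an edgeR adjusted p of 0.913. It was -0.02 with effective length offsets and 0.12 without control 1 and nKO 4. At 65.4% GC it was the most GC-rich member. Hcn3 had 5.25 ± 1.16 and 5.80 ± 0.905. The order Hcn2, Hcn3, Hcn4 held in all 10 libraries.

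Hcn4, the slow pacemaker form of sinoatrial node and thalamus, was the one member at an unadjusted edgeR p under 0.05. In CPM its values were 2.54, 2.76, 2.95, 1.93 and 2.01 CPM in controls 1 to 5 and 3.54, 3.13, 3.15, 3.38 and 3.01 CPM in nKO 1 to 5. All nKO libraries were above all controls, with 33.2 to 72.4 estimated reads per library. In reads, the log2 difference was 0.41 (95% interval 0.06 to 0.75, SE 0.16), for an edgeR adjusted p of 0.82. In TPM the values were 1.13, 1.79, 1.92, 1.19 and 1.24 TPM in controls 1 to 5 and 2.22, 1.93, 1.95, 2.43 and 1.94 TPM in nKO 1 to 5. The groups again did not overlap, but the highest control (1.92 TPM) and the lowest nKO library (1.93 TPM) nearly met, and the means were 1.46 ± 0.371 and 2.09 ± 0.222 TPM. The exact permutation p was 0.00794, or 0.31 adjusted over all tested genes. Hcn4 was higher in nKO under all 23 alternatives, from 0.34 to 0.49 on the log2 scale, with adjusted p from 0.35 to 0.95, and no fit called it. Summed TPM of 5 thalamic markers overlapped between groups, 19.7 to 24.8 in controls and 20.4 to 25.2 in nKO. Of the 4 thalamic markers tested by edgeR, 2 were higher in nKO and 2 lower. At unadjusted p under 0.05 there was 1 of them, against 5.65% of all genes. The part of thalamic tissue in the Hcn4 difference was not tested.

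Genes that bind or modify these channels gave few signals. Over all tested genes 47.8% were higher in nKO, 5.65% were at unadjusted p under 0.05 by edgeR and 0.0139% passed 5%. The sodium channel partners were long, with a median of 6525 bases and a median length trend of 0.05. With that trend taken off, the medians were 0.04 for sodium, 0.08 for calcium and -0.05 for HCN partners. Of 10 sodium channel partners, 7 were higher in nKO with a median log2 fold change of 0.06; 0 passed 5% by edgeR and 1 was at unadjusted p under 0.05. Ank2, a large membrane scaffold of axons, had 1295 ± 103 CPM in controls and 1453 ± 91.5 in nKO (log2 fold change 0.17, SE 0.07, edgeR adjusted p = 0.82). Fgf12, which binds the sodium channel C-terminus, and Ank3, the scaffold of the axon initial segment, had log2 fold changes of 0.28 (SE 0.17) and 0.15 (SE 0.11). Of 20 tested calcium channel partners 13 were higher, with a median of 0.08; 0 passed 5% by edgeR and 1 was at unadjusted p under 0.05. Cacng3 had 31.5 ± 10.9 CPM in controls and 44.5 ± 1.99 in nKO (log2 fold change 0.50, SE 0.22, edgeR adjusted p = 0.82), with the control range of 14.8 to 43.8 CPM reaching into the nKO range of 42.7 to 47.7. Cacng3 and Cacng2 (0.34, SE 0.17) encode AMPA receptor auxiliary proteins related to a muscle calcium channel subunit, and Rims1 (0.10, SE 0.06) is a release site scaffold. Of 6 tested HCN partners 1 was higher and the median was -0.01, with 0 past 5% by edgeR and 0 at unadjusted p under 0.05. The 3 with the smallest p were Vapb (-0.08), Lrmp (-0.09) and Kctd3 (0.01).

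Among genes of the sodium leak channel, Fam155a, an auxiliary subunit of the NALCN complex, fell from 104 ± 7.58 CPM in controls to 62.8 ± 6.03 in nKO (log2 fold change -0.73, SE 0.08, edgeR adjusted p = 0.00634), without overlap between groups. For the pore gene Nalcn the log2 fold change was 0.01 (SE 0.09), and the partners Unc79 and Unc80 had 0.14 (SE 0.07) and 0.09 (SE 0.06), none past 5%.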

How the data were processed

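Total RNA of cortex from 10 mice was sequenced as stranded, ribosomal RNA-depleted libraries, per the labels' protocols. Per the submitters' processing notes, Salmon, bcl2fastq and DESeq2 were used with build mm10. Versions and the annotation release are not stated there. For each library the authors deposited estimated counts, TPM, lengths and effective lengths (in bases) per gene and per transcript, per the file headers. Reads that match several transcripts are shared out by Salmon, which sets the values of near-identical forms. A deposited table of scores for 22 genes holds no member and was not used here.

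The deposited estimated counts were rounded, filtered with filterByExpr (at least 10 reads, and 15 in total) and scaled by TMM, also for CPM. Groups were compared by the genotype label with the robust quasi-likelihood test of edgeR 4.0.16 (R 4.3.3), adjusted by Benjamini-Hochberg over all 14378 tested genes at 5%. SEs and 95% intervals come from that test. Levels in TPM were compared on log2(TPM + 0.1), whose differences understate changes of low genes, by a 2-sided exact permutation test over all ways to split the libraries 5 and 5. Differences in transcript usage were sought with diffSpliceDGE of edgeR, with a Simes p per gene. Gene coordinates and transcript identity were taken from RefSeq on GRCm38.p6, and printed sequences from GENCODE M21 transcripts on GRCm38.

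The rule for members uses gene symbols alone, but the module and the lists were chosen with earlier results of these data known. Per-library values are given for the most abundant member of each of the 7 families, for members past 5%, at unadjusted p under 0.05 or without overlap, and for the 6 with the smallest p. Values of 3 members are not reported here; those genes stay in the fits and in the module's counts. Outside the module, Atad3a, Fam155a and up to 3 genes of smallest p per partner list are named. Alternatives were DESeq2 1.42.0, limma-voom (limma 3.58.1), other scalings and filters, effective length offsets, transcript sums, 1 surrogate variable (sva 3.50.0), removal of a length trend (loess, span 0.5), a pseudocount of 1, and libraries left out. Depth limits precision for members under about 100 reads per library. The p-values set the difference between groups against the variation between libraries. With 1 library per animal, that variation holds differences between animals and between library preparations alike.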

Additional observations from a re-analysis of the deposited data

Results flagged for a closer look

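Within each group of 5 libraries, a library was noted when its gap to the nearest other value exceeded 0.71 of the group's range. Chance gives about 1 such group in 20. In TPM 0 of 56 groups of 28 tested channel genes were noted, and in CPM 8 of 56. In 5 of the 8, control 1 was the high library. These were Cacna1i (209.5 CPM, other controls 92.4 to 103), Cacna1a (167.8 CPM, others 100.1 to 115), Cacna1g (99.7 CPM, others 44.5 to 53.3), Cacnb3 (160.5 CPM, others 100.1 to 117) and Hcn2 (105 CPM, others 57.6 to 70.1). In the other 3, Scn2a was high in nKO 4 (1108 CPM, other nKO libraries 927 to 953), Scn2b in control 4 (392.6 CPM, other controls 347 to 360) and Scn2b in nKO 5 (400.2 CPM, other nKO libraries 358 to 368).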

How the results depend on the processing

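No channel gene passed 5% under any alternative that gave a p, and the fall of Atad3a was called in each of them. Genes past 5% numbered 5 with DESeq2, and 2 to 3 when a library was left out. Channel genes at unadjusted p under 0.05 numbered 3 with 1 surrogate variable (against 12.6% of all genes), 3 with effective length offsets, 6 without control 1 and nKO 4, 7 with both of these changes (an alternative chosen after seeing the data), and 0 to 4 when a library was left out. Members higher in nKO made up 80.6% with the offsets and 80.6% with both changes, and 54.8% to 83.9% when a library was left out. Their median log2 fold change was 0.12 with both changes and 0.0276 to 0.155 when a library was left out. Shares and medians of long genes were not computed for these fits. Among named genes, none of them called, some changed sign. Cacna1i was 0.0817 with 1 surrogate variable, 0.0069 with limma-voom, 0.0523 with offsets, 0.286 without control 1 and nKO 4, 0.252 with both changes, and -0.1443 to 0.235 when a library was left out (positive without control 1). Without control 1 and nKO 4, Hcn2 was 0.117 and Cacna2d1 -0.028, and with both changes Hcn2 was 0.0935. When a library was left out, Hcn2 ran from -0.1903 to 0.0634 (positive without control 1), Cacnb4 from -0.0721 to 0.0473 (positive without control 2 or nKO 2) and Scn2a from -0.0656 to 0.0052 (positive without control 2, control 4, nKO 1, nKO 2 or nKO 5). The cause of these changes was not tested. Usage calls numbered 0 under every alternative run. No paired analysis was possible because the labels number the libraries consecutively over both groups and do not say which animals share a litter; the replicate numbers printed here follow accession order and pair nothing. Depth limits Hcn4, Cacna2d4 and Scn9a, each under 100 reads in every library.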
